A study of Mus musculus with 6 samples.

Results

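The 10 genes described here encode transcription factors that direct granulocyte, monocyte and dendritic cell fate, the C/EBP proteins left out. They were taken by gene symbol from a table of 55367 symbols, and all 10 had values. Of these, 9 passed the filter for testing, a mean deposited value of at least 1, together with 16746 genes in all. Irf4 fell below it. The study sorted leukemia stem cells (LSCs) from the bone marrow of mice with MLL-AF9 leukemia and asked how their RNA differs without Piezo1, a mechanosensitive cation channel. There were 3 WT and 3 Piezo1cko libraries. The Piezo1cko cells came from Mx1-cre; Piezo1 fl/fl mice and the WT cells from Piezo1 fl/fl littermates without the Cre, and both were given pIpC, which switches on the interferon-responsive Mx1 promoter in blood cells and other tissues. The mice were 8 to 10 weeks old on a C57BL/6J background. In both groups lineage-negative bone marrow cells carried a retrovirus with MLL-AF9 and YFP and had grown in irradiated recipients, and the sorted cells were YFP+, negative for lineage markers and Sca-1, and positive for c-Kit, CD16/32 (high) and CD34. The sources used here do not state how many recipients a library holds, so p-values measure only the spread between these libraries, which may be technical.

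PU.1, the product of Spi1, and RUNX1 open the myeloid program in progenitors, while MYB keeps progenitors dividing and is needed by MLL-rearranged leukemia. Downstream of them the routes part: GFI1 is a repressor that favors granulocytes, IRF8 and KLF4 favor monocytes and some dendritic cells, and IRF4 acts in other dendritic cells. ZEB2 and ID2 oppose each other in the branching of dendritic cells, and Ikaros, from Ikzf1, acts in lymphoid and myeloid progenitors alike.

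Promoter sequence from RefSeq (GRCm38.p6, 250 bases before to 50 after a start site) was found for 9 of the 10 genes, in 16 windows, and Spi1 had no entry. The windows below are that of Klf4, which had the largest change on the deposited scale, and 1 of 2 each of Irf8 and Gfi1, whose ratio is compared further on. For these the window with a motif of an opposing factor was chosen. The gene-level reads do not tell which start site was used. Capitals mark matches, on either strand, to short binding motifs. Positions are those of a match's 5′ base, with the start site as position 0.
Klf4, chr4:55532426-55532725, minus strand: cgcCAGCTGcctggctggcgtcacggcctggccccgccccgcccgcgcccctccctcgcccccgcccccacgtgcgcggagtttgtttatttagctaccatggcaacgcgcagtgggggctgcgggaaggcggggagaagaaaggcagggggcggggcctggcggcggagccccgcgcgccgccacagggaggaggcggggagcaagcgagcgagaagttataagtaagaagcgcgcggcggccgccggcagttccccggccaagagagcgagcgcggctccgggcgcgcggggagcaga
Irf8, chr8:120736108-120736407, plus strand, the upstream of 2 windows: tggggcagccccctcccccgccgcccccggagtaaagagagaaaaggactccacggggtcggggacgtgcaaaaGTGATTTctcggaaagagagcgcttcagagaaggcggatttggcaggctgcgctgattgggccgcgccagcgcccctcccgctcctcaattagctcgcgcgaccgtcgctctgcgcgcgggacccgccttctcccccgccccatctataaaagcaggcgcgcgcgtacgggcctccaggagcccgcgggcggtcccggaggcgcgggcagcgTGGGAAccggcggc
Gfi1, chr5:107724294-107724593, minus strand, the downstream of 2 windows: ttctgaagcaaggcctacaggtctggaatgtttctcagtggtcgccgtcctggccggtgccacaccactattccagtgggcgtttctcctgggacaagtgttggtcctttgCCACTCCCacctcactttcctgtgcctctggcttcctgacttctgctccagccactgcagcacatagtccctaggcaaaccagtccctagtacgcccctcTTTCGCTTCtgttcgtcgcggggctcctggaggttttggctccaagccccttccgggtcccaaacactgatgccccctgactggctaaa

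The Klf4 window held 1 match to the E-box bound by E proteins, which ID2 inhibits (CAGCTG, position -247), a motif found in 16.3% of 32851 mouse promoter windows. The printed Irf8 window held 1 match to the GFI1 motif (AAATCAC, position -176), found in 3.2% of windows, and 1 to an Ikaros motif (TGGGAA, position 36), found in 25.6%, which contains the ETS core GGAA. The other Irf8 window held an Ikaros and a ZEB match and none to the GFI1 motif. The printed Gfi1 window held 1 match to a KLF motif (GGGNGTGG, position -139), found in 17.6% of windows, and 1 to an IRF motif (GAANNGAAA, position -39), found in 7.52%. The other Gfi1 window held a KLF and a ZEB match and none to the IRF motif. The other motifs searched were TGTGGT for RUNX, CAACNG for MYB, CACCTG for ZEB, GAGGAAGT for PU.1 and GGAA for the ETS family, the last of which occurred in 96% of windows and is not capitalized. These are matches of letters in the reference sequence, and no binding was measured.

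The libraries held between 14112126 and 15483616 reads on genes, as recovered from the deposited values. The deposited values are log2 values shrunken toward each gene's mean, so a difference on that scale understates the change. This held for abundant factors too, and more strongly where reads were few. Reads were therefore recovered from the deposited values and divided by size factors, and "normalized reads" below are these. For Spi1, with a WT mean of 9645 normalized reads, the log2 difference was -0.26 on deposited values and -0.36 on recovered reads. For Klf4, with a WT mean of 45.9, it was 0.33 and 1.26. Piezo1 itself had 101 ± 7.93 normalized reads in WT and 46.3 ± 10.0 in Piezo1cko libraries (SD, n = 3), with a log2 difference of -0.29 on the deposited scale (limma, adjusted p = 5.8e-06). The gene-level reads do not separate the deleted exons from the rest. The gate genes Kit, Cd34, Fcgr3 and Fcgr2b had mean normalized reads of 1667 or more in each group. They were not alike between groups: Kit rose from 2522 ± 58.4 to 3425 ± 86.8 and Cd34 from 3721 ± 60.1 to 5796 ± 162, while Fcgr2b, a CD16/32 gene, fell from 3468 ± 83.7 to 1667 ± 79.4 (limma, adjusted p at most 8.42e-09), and Fcgr3 was not called (adjusted p = 0.574). Ly6a, which encodes Sca-1, had 0.66 ± 0.572 in WT and 11.4 ± 4.79 in Piezo1cko libraries. Within groups, pairs of libraries varied little more than counting alone would give, with a mean chi-square per gene of 1.39 to 1.59 where counting noise alone gives 1, against 11.6 to 12.4 between groups (genes with 40 to 200 reads in a pair). Calls were common, and small differences could pass: 31.6% of all genes tested were called higher and 31.4% lower in Piezo1cko LSCs at an adjusted p under 0.05.

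Against that background, 4 of the 9 tested factors were higher in Piezo1cko LSCs (Klf4, Runx1, Irf8 and Zeb2) and 3 were lower (Spi1, Gfi1 and Myb). Ikzf1 and Id2 did not pass. The median change over the 9 was 0.06 on the deposited log2 scale, beside 0.00 over all genes, and the median size of change regardless of sign was 0.21, beside 0.09. With 3 samples a group, 5 of the 9 had all Piezo1cko libraries above all WT libraries, against 33.5% of all genes, and 3 had all below, against 33.1%. No factor reached an absolute log2 fold change over 1 on the deposited scale, where 0.818% of genes did and were also called. On recovered reads, fitted with limma-voom, the same 4 factors were called higher and the same 3 lower, where again 31.6% of genes were called higher and 31.4% lower. Klf4 alone was then also past an absolute log2 fold change of 1; over all genes 12.7% were called higher and 12.2% lower by both thresholds. The median size of change was 0.31 over the 9 factors and 0.44 over all genes on that scale, the reverse of the order on the deposited scale. The fit on recovered reads took in genes with as few as 10 reads in total.

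**Figure D1:**
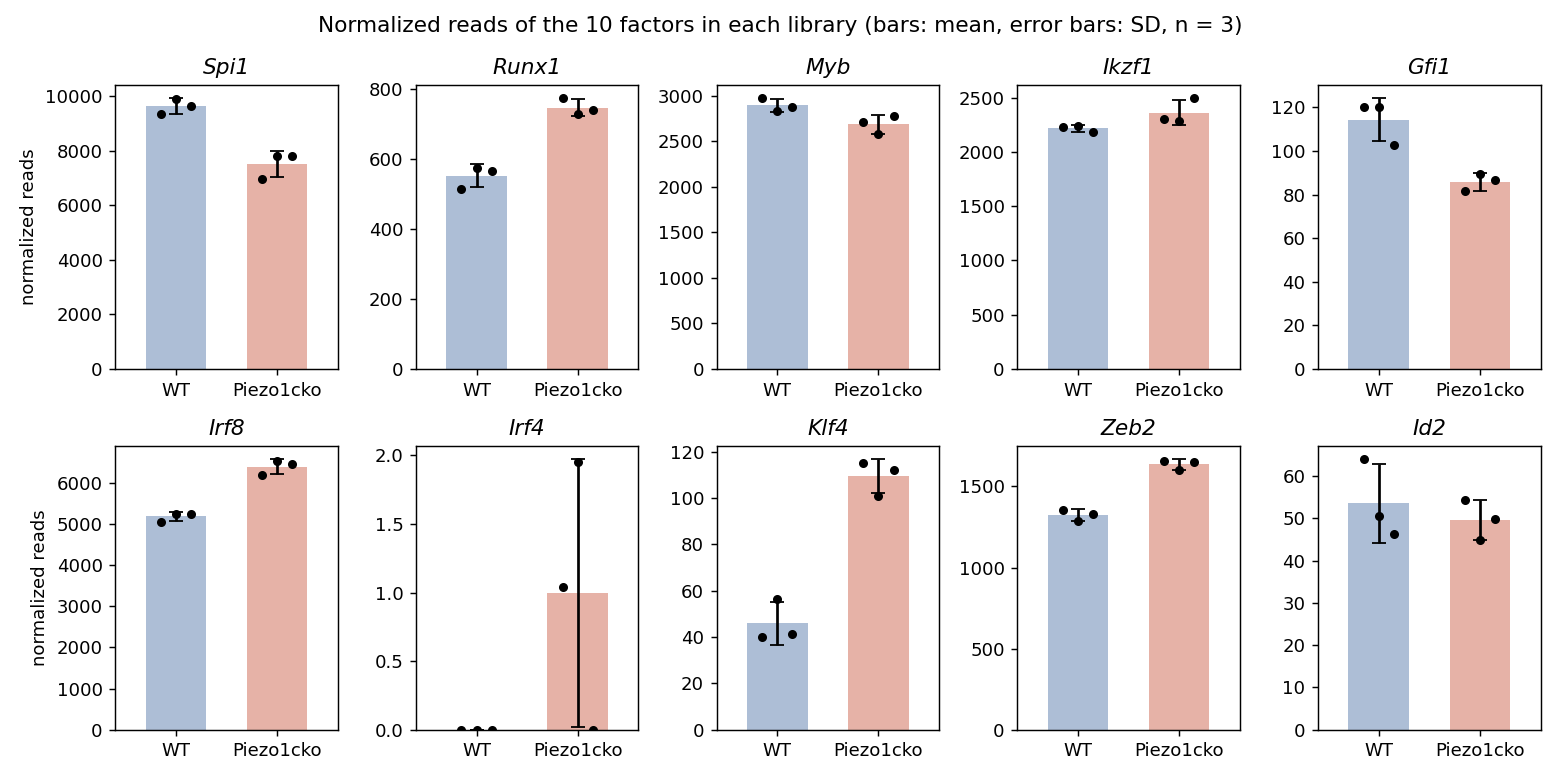
Normalized reads (vertical axes, from 0, a separate scale for each gene) of the 10 factors in the WT and Piezo1cko libraries. Points are libraries, bars are means and error bars are SD (n = 3), and the groups are apart for 8 genes and overlap for Id2 and Irf4.

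Klf4 (chr4:55527143-55532466, minus strand) drives monocyte differentiation when present in myeloid progenitors. It had 39.8, 56.5 and 41.4 normalized reads in the WT libraries and 115, 101 and 112 in the Piezo1cko libraries. Each Piezo1cko library was above every WT library, and the group mean was 2.38-fold that of WT. The log2 difference was 0.33 ± 0.04 (SE) on the deposited scale (limma, adjusted p = 8.55e-07) and 1.26 ± 0.17 on recovered reads (limma-voom, adjusted p = 9.87e-06). Klf4 had only 41 to 56 unnormalized reads in a WT library, and its coefficient of variation there was 20.1%, the highest of the 9 tested genes. By recovered reads 22.7% of all genes changed more than Klf4 did, in a fit that took in genes with as few as 10 reads in total. On deposited values 10.7% did.

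Irf8 (chr8:120736358-120756694, plus strand), which promotes monocytes and a class of dendritic cells and restrains neutrophils, had 5057, 5248 and 5248 normalized reads in WT libraries. In Piezo1cko libraries it had 6179, 6536 and 6444. The groups were well apart, with means differing by 23.2% of the WT level. The log2 difference was 0.22 ± 0.02 on deposited values (limma, adjusted p = 2.46e-07) and 0.30 ± 0.03 on recovered reads (limma-voom, adjusted p = 5.23e-07). Zeb2 (chr2:44983632-45117395, minus strand), a zinc finger repressor that supports monocyte and some dendritic cell fates, had 1352, 1284 and 1333 normalized reads in WT and 1657, 1599 and 1652 in Piezo1cko libraries. All 3 Piezo1cko values lay above the WT values, and the mean was 1.24-fold that of WT. Its log2 difference was 0.21 ± 0.03 on deposited values (limma, adjusted p = 6.98e-06) and 0.31 ± 0.04 on recovered reads.

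Irf4 (chr13:30749226-30766976, plus strand), the paralogue of Irf8 that acts in other dendritic cells and in lymphocytes, had no read in the 3 WT libraries, where a count of 0 allows up to 3 reads. It had 1, 2 and 0 reads in the Piezo1cko libraries. Both groups were at or under that floor and overlapped, so no fold is given. Id2 (chr12:25093799-25097140, minus strand) encodes an inhibitor of E proteins that is needed for some dendritic cells. It had 64.0, 50.5 and 46.2 normalized reads in WT and 54.3, 44.8 and 49.9 in Piezo1cko libraries, and the groups overlapped. Its log2 difference was -0.02 ± 0.04 on deposited values (limma, adjusted p = 0.628) and -0.10 ± 0.19 on recovered reads (adjusted p = 0.652), so a change of modest size was not detectable at this depth.

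Spi1 (chr2:91082390-91115756, plus strand), whose product PU.1 sets the myeloid program by its dose, was lower without Piezo1. The WT libraries had 9360, 9916 and 9659 normalized reads and the Piezo1cko libraries 6968, 7800 and 7813. All Piezo1cko values were below all WT values, and the mean was 78% of that of WT. The log2 difference was -0.26 ± 0.03 on deposited values (limma, adjusted p = 2.17e-07) and -0.36 ± 0.04 on recovered reads (limma-voom, adjusted p = 9.27e-07). Within the Piezo1cko group, replicate 1 was the lowest. Without it the log2 difference was smaller and still called, and across the 6 libraries left out in turn it ran from -0.28 to -0.22.

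Gfi1 (chr5:107716657-107726036, minus strand), the granulocyte factor that represses monocyte genes, had 120, 120 and 103 normalized reads in WT libraries. In Piezo1cko libraries it had 81.5, 89.7 and 86.5. The groups did not overlap, and the Piezo1cko mean was 75% of the WT mean. The log2 difference was -0.13 ± 0.04 on deposited values (limma, adjusted p = 0.00631) and -0.41 ± 0.13 on recovered reads (limma-voom, adjusted p = 0.0123). A gene on the opposite strand, A430072P03Rik, shares 101 exon bases with Gfi1, 3.2% of its exon length. It had 86, 82 and 90 reads in WT and 126, 145 and 146 in Piezo1cko libraries. Counting is not stated to use strand, so reads in the shared stretch cannot be assigned to either gene.

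Runx1 (chr16:92601466-92826149, minus strand), the DNA-binding subunit of core-binding factor, had 515, 576 and 567 normalized reads in WT and 774, 729 and 740 in Piezo1cko libraries. The lowest Piezo1cko value was far above the highest WT value, and the mean was 1.35-fold that of WT. The log2 difference was 0.27 ± 0.04 on deposited values (limma, adjusted p = 3.54e-06) and 0.44 ± 0.06 on recovered reads (limma-voom, adjusted p = 1.08e-05). Cbfb, which encodes its non-DNA-binding partner, went the other way, from 1679 ± 81.8 to 471 ± 24.1 normalized reads (log2 difference -1.20 on deposited values, limma, adjusted p = 1.64e-15). It had the largest change of the 23 cofactors.

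Myb (chr10:21124935-21160984, minus strand) had 2968, 2829 and 2876 normalized reads in WT and 2705, 2574 and 2772 in Piezo1cko libraries. The groups lay close together without overlapping, and the Piezo1cko mean was 92.8% of the WT mean. The log2 difference was -0.08 ± 0.03 on deposited values (limma, adjusted p = 0.0229). The call did not survive leaving out WT replicate 1 (adjusted p = 0.0896), WT replicate 3 (0.059) or Piezo1cko replicate 2 (0.124), nor centering on library medians (0.106). Genes on the opposite strand also share exon bases with Myb (Gm26577, 6.3% of its exon length, at most 19 reads in any library) and with Zeb2 (Zeb2os, 3.3%, 65 to 111 reads). Ikzf1 (chr11:11685003-11772926, plus strand) had 2234, 2235 and 2180 normalized reads in WT and 2304, 2289 and 2493 in Piezo1cko libraries. All Piezo1cko values were above the WT values, yet its log2 difference of 0.06 ± 0.03 missed the threshold (limma, adjusted p = 0.065). Without Piezo1cko replicate 1 it passed (adjusted p = 0.0446), as it did after centering on library medians (0.0158) and after quantile normalization (0.0326).

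**Figure D2:**
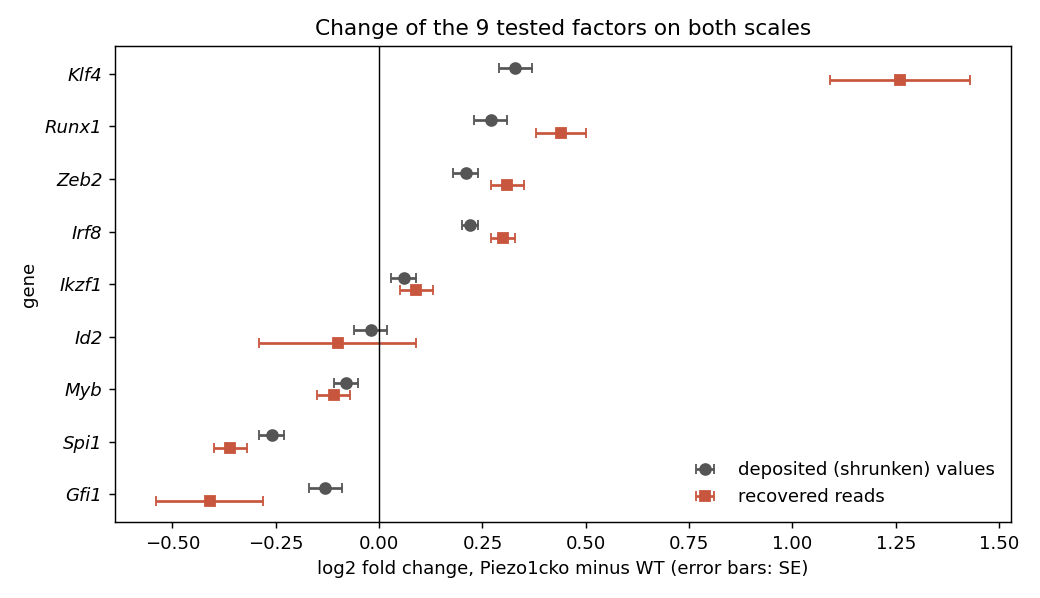
Log2 fold change (horizontal axis, Piezo1cko minus WT) of the 9 tested factors from the deposited shrunken values (circles) and from recovered reads (squares), with error bars of SE. Klf4 moved most between the scales, from 0.33 to 1.26, and Id2 and Gfi1 had the widest errors beside it.

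Levels of different genes were compared per length, in TPM, the share of a library's reads after division by exon length, taken over the union of a gene's exons. In WT LSCs the order was Spi1 at 785 ± 20.4 TPM, Irf8 at 161 ± 3.17, Ikzf1 at 84.1 ± 1.09, Myb at 70.9 ± 1.93, Zeb2 at 14.5 ± 0.432, Runx1 at 10.1 ± 0.577, Gfi1 at 7.87 ± 0.675, Id2 at 4.82 ± 0.845, Klf4 at 3.3 ± 0.652 and Irf4 at 0. No neighbors in this order overlapped between libraries, though Id2 and Klf4 came close, at a lowest of 4.16 and a highest of 4.05 TPM. In Piezo1cko LSCs Klf4, at 7.98 ± 0.556 TPM, stood above Gfi1, at 5.99 ± 0.255, and Id2, at 4.53 ± 0.458, and again no neighbors overlapped. The order of the other factors was the same in both groups. Exon lengths include all annotated isoforms, which lowers the TPM of genes with long alternative ends such as Zeb2.

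**Figure D3:**
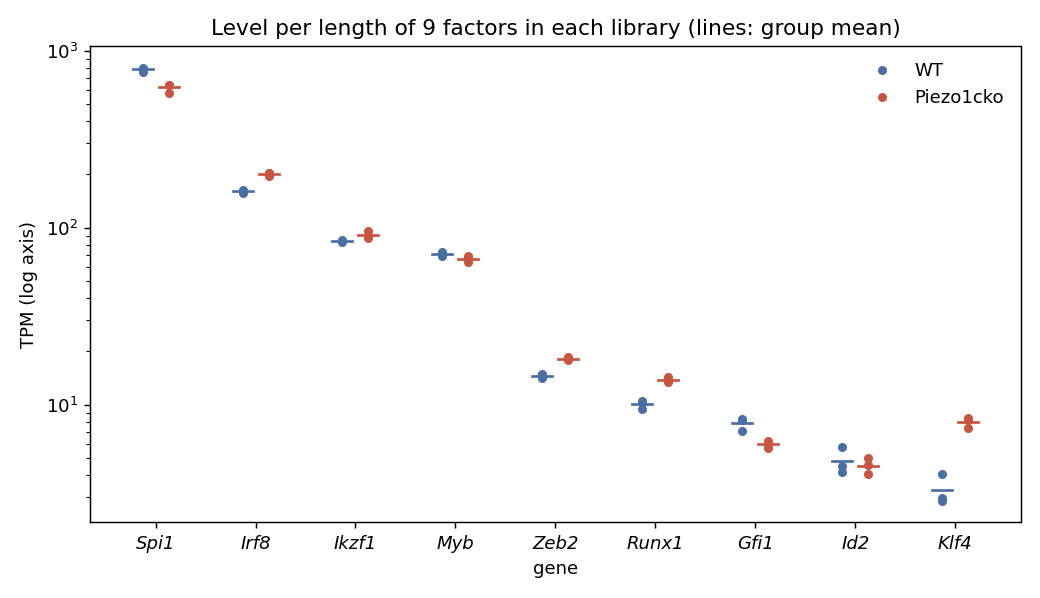
TPM (vertical log axis) of 9 factors in each library, with lines at group means. Spi1 stood highest at 785 TPM in WT and 621 in Piezo1cko libraries, and Klf4 was the lowest of the 9 in WT and above Gfi1 and Id2 in Piezo1cko libraries. Irf4, at 0 in WT, cannot be drawn on a log axis.

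Ratios between factors that oppose each other, or are paralogues, were compared within each library, as differences of log2 normalized reads with 0.5 added. With 3 against 3 libraries the exact two-sided permutation test cannot go below p = 0.1, and 5 pairs were compared. Klf4 against Gfi1 was -1.58, -1.08 and -1.30 in WT and 0.49, 0.18 and 0.37 in Piezo1cko libraries. Klf4 reads were thus fewer than Gfi1 reads in every WT library and more in every Piezo1cko library, a difference of 1.67 on the log2 scale (exact permutation p = 0.1, adjusted 0.167). Irf8 against Gfi1 was 5.50 ± 0.15 in WT and 6.21 ± 0.03 in Piezo1cko libraries, and Zeb2 against Id2 was 4.63 ± 0.23 and 5.03 ± 0.11. Neither pair overlapped between groups, and both had the same exact p of 0.1 and adjusted p of 0.167. Spi1 against Gfi1 was 6.39 ± 0.14 and 6.44 ± 0.04, with overlapping groups (exact permutation p = 0.6, adjusted 0.6), Spi1 standing at 78% and Gfi1 at 75% of their WT means. Irf8 against Irf4 is not read, since Irf4 had at most 2 reads (exact permutation p = 0.4, adjusted 0.5).

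**Figure D4:**
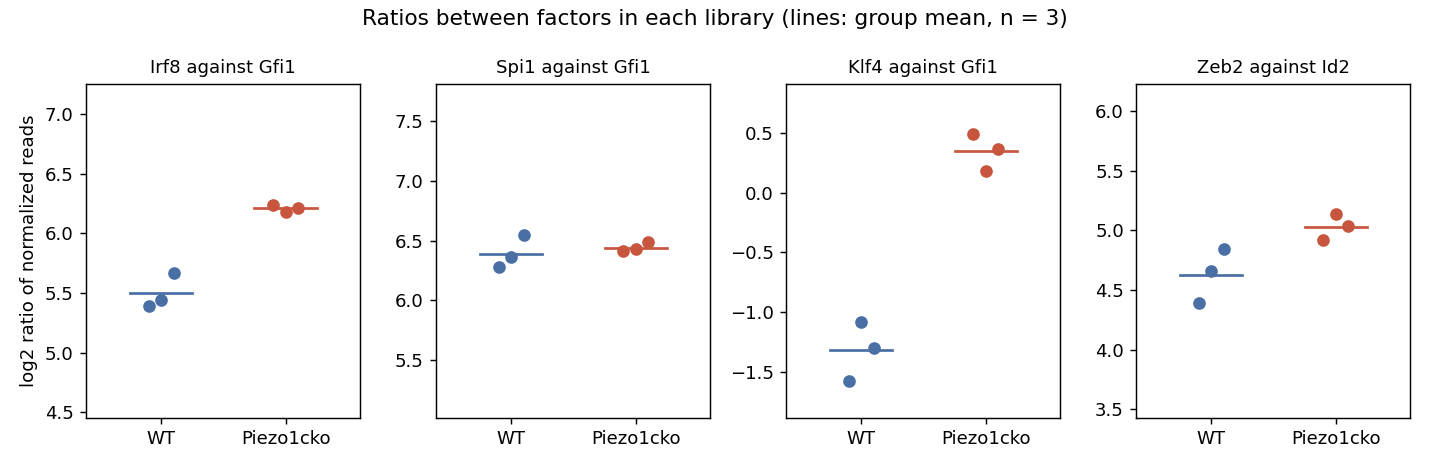
Log2 ratios of normalized reads (vertical axes, each spanning the same range) between factors in each library, with lines at group means (n = 3). Klf4 against Gfi1 went from -1.32 to 0.35, Irf8 against Gfi1 from 5.50 to 6.21 and Zeb2 against Id2 from 4.63 to 5.03, while Spi1 against Gfi1 overlapped.

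Relatives of the factors moved in both directions. Of 35 listed paralogues 30 were tested, 11 of them higher and 16 lower in Piezo1cko LSCs, with a median log2 difference of -0.08 on deposited values. These are 36.7% and 53.3% of those tested, beside 31.6% and 31.4% of all genes. Read by family, a split made after the values were seen, 10 of 11 tested Krüppel-like factors other than Klf4 were lower, and Klf13 was higher. Klf3 had 554 ± 20.4 and 149 ± 3.1 normalized reads, Klf9 had 753 ± 28.7 and 275 ± 48.2, and Klf5 had 456 ± 34.7 and 228 ± 17.4, in WT and Piezo1cko libraries in that order. Klf4 thus went the other way from those 10. The interferon regulatory factors went mainly with Irf8, with 5 of 7 tested called higher (Irf1, Irf3, Irf5, Irf7 and Irf9). This count was 4 without WT replicate 1, WT replicate 3, Piezo1cko replicate 2 or Piezo1cko replicate 3. Gfi1b, the paralogue of Gfi1 that acts in erythroid and megakaryocyte cells and that GFI1 can repress, rose from 103 ± 6.43 to 391 ± 47.4 normalized reads (limma, adjusted p = 6.23e-12), opposite to Gfi1.

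Of 23 cofactors, 6 were higher and 9 lower, 26.1% and 39.1%, near the 31.6% and 31.4% of all genes. Besides Cbfb the lower ones included the corepressors Ctbp1, at 48% of the WT mean or 534 ± 69.4 normalized reads, and Hdac2, at 622 ± 25.3 against 1276 ± 82.3 in WT. Of 19 other fate factors, 8 were higher and 7 lower, 42.1% and 36.8%. Nab2, a corepressor of the EGR factors, fell from 319 ± 10.1 to 17.7 ± 9.58 normalized reads, and Egr1, a monocyte factor, rose from 182 ± 1.89 to 421 ± 17.7. Gata2, a progenitor and mast cell factor, rose from 1363 ± 53.8 to 2478 ± 98.3, and Relb fell from 259 ± 14.2 to 63.6 ± 5.6. All had limma adjusted p-values of at most 2.93e-10 on deposited values.

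Known targets did not move in a single direction. Of 19 tested PU.1 targets 11 were higher and 4 lower, although Spi1 itself was lower. Ctss, encoding cathepsin S, rose from 664 ± 30.8 to 1287 ± 35.6 normalized reads, while Tlr4 fell from 298 ± 3.83 to 48.3 ± 9.09 and Csf3r, the receptor for G-CSF, from 1800 ± 13.7 to 1204 ± 26.3. Of 10 genes that GFI1 represses 4 were higher and 3 lower, and Hoxa9 stood at 3422 and 3436 mean normalized reads. Of 8 tested IRF8 targets 4 were higher and 2 lower: Cst3, encoding cystatin C, rose from 8385 ± 162 to 10814 ± 387 normalized reads, whereas Ctsc, encoding cathepsin C, fell from 6415 ± 152 to 2478 ± 55.0. Of 10 tested MYB or RUNX1 targets 4 were higher and 5 lower. The granule genes Mpo and Elane fell from 290115 ± 9722 to 157983 ± 3832 and from 229691 ± 12033 to 107782 ± 7903 normalized reads, and Cd34 and Kit, given above, rose. Some genes stand in several lists. Over the 109 distinct tested genes of these 7 lists, 42 were higher and 44 lower, 38.5% and 40.4%, beside 31.6% and 31.4% of all genes.

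**Figure D5:**
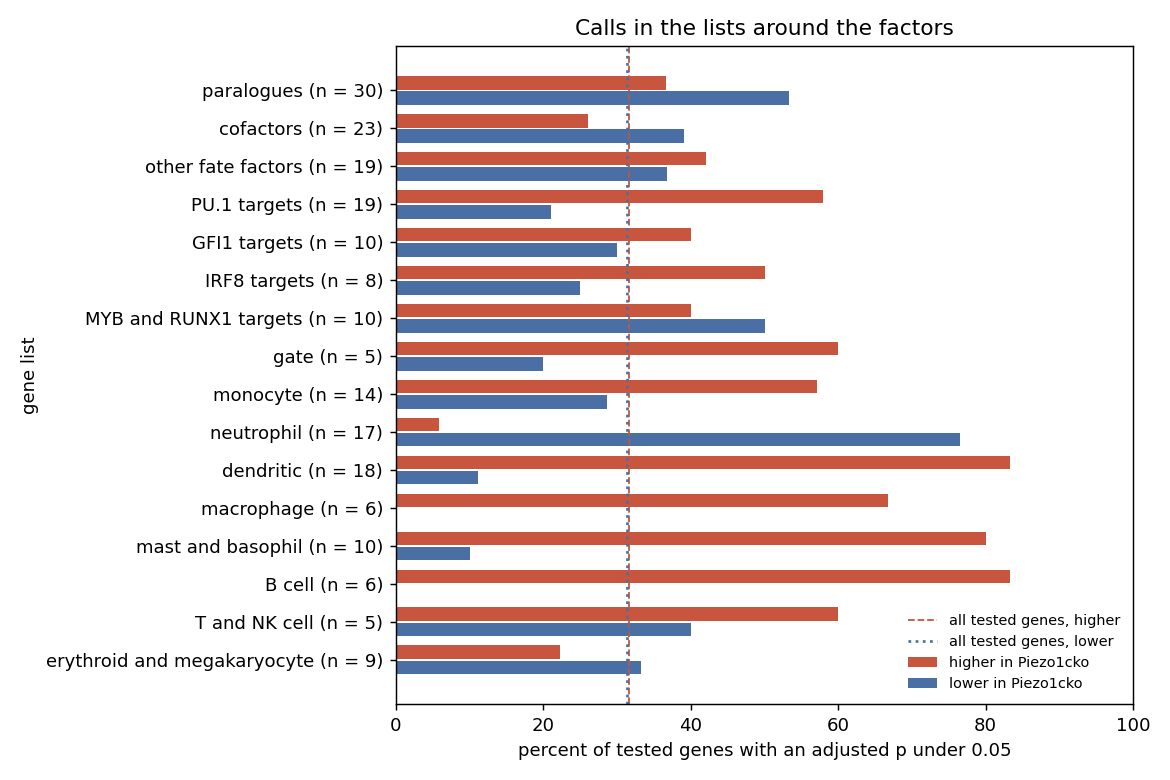
Percent of tested genes called at an adjusted p under 0.05 (horizontal axis) in each gene list, higher and lower in Piezo1cko LSCs, with n the number tested. Vertical lines mark the shares over all genes, 31.6% and 31.4%, and the neutrophil list (76.5% lower) and the dendritic list (83.3% higher) lie farthest from them among lists with over 10 genes tested.

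Cell type markers also moved, and in bulk RNA fewer cells of a type and less RNA per cell cannot be told apart. The counts below stand beside 31.6% of all genes called higher and 31.4% called lower. Of 17 tested neutrophil markers 13 were lower and Mmp8 was higher. Their summed normalized reads were 537365 to 578793 in WT and 275695 to 298166 in Piezo1cko libraries, beside the lower Gfi1. The sums came mainly from the granule genes Mpo and Elane, given above among MYB or RUNX1 targets. Retnlg had no read and Ly6g at most 3 in any library. Of 18 tested dendritic markers 15 were higher and 2 lower, with sums of 9886 to 10281 and 19489 to 20431, beside the higher Irf8 and Zeb2. H2-Ab1, an MHC class II gene, had 135 ± 18.2 normalized reads in WT and 3346 ± 151 in Piezo1cko libraries. The 2 lower were Zbtb46, from 181 ± 5.78 to 74.6 ± 9.65, and Ccr7, from 27.1 ± 0.833 to 0 in the Piezo1cko libraries. Cst3, given above, made up most of the dendritic sum in WT. The rise of the sum came mainly from H2-Ab1, Cst3, Cd74 (111 ± 12.6 to 2185 ± 17.2) and H2-Aa (7.87 ± 2.14 to 614 ± 49.9). Some markers called higher had few reads: Clec9a went from 1.98 to 15.3, Siglech from 0.336 to 7.79 and Ciita from 1.67 to 7.42 mean normalized reads. Of 14 tested monocyte markers 8 were higher and 4 lower, beside the higher Klf4, yet their sums were lower in Piezo1cko libraries, 37721 to 38793 against 49831 to 50411. The largest falls in reads were those of F13a1, from 22510 ± 430 to 15351 ± 480, Cd14, from 6175 ± 258 to 444 ± 40.6, and Lgals3, from 4512 ± 86.3 to 1817 ± 69.7. Fn1 rose from 24.5 ± 1.37 to 285 ± 12.2, and Ace had at most 3 reads in any library. Of 10 tested mast cell and basophil markers 8 were higher and 1, Il1rl1, was lower, with sums of 3799 to 3958 and 13472 to 13706, and Mcpt4 and Tpsab1 had at most 3 reads. Of 6 tested B cell markers 5 were higher and none was lower, with sums of 12232 to 12594 and 22379 to 22762, mainly from Ighm. Of those higher, Cd79a, Ebf1 and Vpreb1 had means of at most 13.9 normalized reads in either group. Pax5, Ms4a1, Rag1 and Cd22 had at most 3 reads in any library. Of 6 tested macrophage markers 4 were higher and none lower, with sums of 927 to 1010 and 1036 to 1179, and C1qa had no read. Of those higher, C1qb, C1qc and Mrc1 had means of at most 21.8 normalized reads in either group. Adgre1 and Vcam1, which made up most of the sums, were not called (limma, adjusted p = 0.647 and 0.713). T and NK cell markers summed to 4050 to 4243 and 2538 to 2617, mainly from Nkg7, with 3 of 5 tested higher and 2 lower and no read of Cd8a or Trbc2 and at most 3 of Cd3e, Cd3g, Cd4 and Ncr1. Erythroid and megakaryocyte markers summed to 400 to 517 and 371 to 413, with 2 of 9 higher and 3 lower. The part of these cell markers in the changes of the factors was not tested.

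By deposited values over the 6 libraries, the genes nearest to Klf4 among all tested were Cbr1, Fam234a and Bambi. The root mean square distance of their centered deposited values from those of Klf4 was 0.010, 0.020 and 0.022 log2 units. Their deposited log2 differences were 0.33, 0.34 and 0.33, beside 0.33 for Klf4, so nearness here follows the shrunken group difference. In mean normalized reads Cbr1 went from 107 to 192, Fam234a from 677 to 973 and Bambi from 250 to 386. Klf4 went from 45.9 to 109.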

How the data were processed

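RNA of 3 WT and 3 Piezo1cko LSC libraries was amplified from poly(A) by a Smart-seq2 protocol and sequenced in pairs. Per the submitters' processing notes the tools were fastp (version 0.20.1), HISAT2 (version 2.2.1), featureCounts (version 2.0.1) and DESeq2 (version 1.28.1), with build GRCm38. The authors deposited 1 table of log2 values, 1 column a library. Of its symbols 26402 had values and 28965 were listed at 0 throughout. The values have the form of DESeq2's regularized log, a shrunken log2 value, although the sources used here do not name it. The 10 genes, the gene lists and the tests were chosen with earlier results of these data known.

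A linear model without covariates compared the groups for each gene whose deposited values averaged 1 or more (limma version 3.58.1 in R version 4.3.3; lmFit, then eBayes with its trend option). P-values are two-sided and adjusted by Benjamini-Hochberg over all genes tested, and a call is an adjusted p under 0.05. Reads were recovered by inverting the regularized log: 94.7% of the genes' values lay no farther than 0.1 from a whole number, and all were then rounded. With the shrinkage set 10% stronger, 22.3% of values of genes with a mean of at least 1 read did so, against 92.4%. Recovered reads of genes with at least 10 in total were fitted with limma-voom. TPM used exon lengths from GENCODE release M21, found for 97% of genes with values. Pairs were tested by exact permutation in scipy (version 1.17.1). The genes named are Piezo1, the 10 factors, the gate genes, from each list up to 4 called genes with the largest change, no overlap of groups and a mean of at least 50 normalized reads, and the 3 genes nearest to the factor with the largest change. Klf13, the interferon regulatory factors, Hoxa9, Il1rl1, Zbtb46, Ccr7, F13a1, Adgre1, Vcam1, the opposite-strand genes and markers with few or no reads were named after their values were seen. Other normalizations, filters, library omissions and a replicate block were tried as alternatives. Counting intervals and floors cover counting error only. Some genes of the lists are not reported here by name.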

Additional observations from a re-analysis of the deposited data

How the results depend on the processing

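Klf4, Runx1, Irf8 and Zeb2 stayed higher and Spi1 and Gfi1 stayed lower, all called, under each of 21 alternatives. Myb was not called under 7 of 21 and Ikzf1 was called under 9 of 21. Requiring also an absolute log2 fold change over 1 left 0 factors higher and 0 lower on deposited values, and 1 higher and 0 lower on recovered reads. Among related genes it left 0 higher and 3 lower on deposited values, and 11 higher and 18 lower on recovered reads, the recovered-read thresholds being chosen after seeing the data. Id2, never called, turned to a log2 difference of 0.00 after centering on library medians, to 0.01 without WT replicate 1 and to 0.04 on recovered reads without it; over all single-library omissions it ran from -0.20 to 0.04. On deposited values the pair differences were 0.35 for Irf8 against Gfi1, 0.46 for Klf4 against Gfi1, -0.13 for Spi1 against Gfi1 and 0.21 for Irf8 against Irf4, where the shrinkage of genes with few reads enters. Leaving out each library in turn gave -0.01 to 0.13 for Spi1 against Gfi1. Same-numbered libraries deviated together only weakly (correlations of 0.195, 0.161 and 0.070), so the numbers were not taken to pair them, although 6 of 6 libraries correlated best with their own number, a hint from the data and not from the design. A fit with the replicate block called 5 factors higher and 3 lower, adding Ikzf1 (adjusted p = 0.0182), and 43 related genes higher and 46 lower. Depth limits statements on Irf4 and Id2.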
